A study of Mus musculus with 4 samples.

Results

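The genes described here are 35 interferon-stimulated antiviral genes, listed by symbol and found in the deposited read-count table by their Ensembl identifiers under the GRCm38 annotation. All 35 had a row among the 55812 features of the table, and all 35 passed the expression filter that left 14701 genes for testing. RNA was sequenced from primary Leydig cells, the testosterone-making cells between the seminiferous tubules, labelled as coming from a 6-month-old mouse. The control group received Negative siRNA (2 libraries, called Negative 1 and Negative 2). The other group received a small interfering RNA against Trps1, a GATA-type transcriptional repressor (2 libraries, called Trps1 1 and Trps1 2). No allele, strain, dose or time of transfection is named in the labels, nor whether libraries of a group came from separate animals or cultures. The p-values below therefore measure only the spread between these libraries, which may be technical. All 4 libraries come from cells that received an siRNA duplex, and untransfected cells are not analysed here.

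Type I interferons bind the receptor chains Ifnar1 and Ifnar2, whose kinases Jak1 and Tyk2 activate Stat2. A complex that holds Stat2 and Irf9 binds the interferon-stimulated response element (ISRE) in promoters of antiviral genes, while interferon gamma signals through the gamma-activated site (GAS). The products block viruses at several steps: IFIT proteins bind foreign RNA, OAS enzymes sense double-stranded RNA and switch on RNase L, and Isg15 is a ubiquitin-like protein joined to other proteins. In the testis, Leydig cells and the macrophages beside them are both known to make such proteins.

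The promoters are shown first, because the ISRE is the sequence through which most of these genes are known to be switched on. RefSeq windows of 300 bases on GRCm38.p6 (250 bases before and 50 after each start site) were given for 27 of the 35 genes, all but Oas2, Usp18, Mx1, Mx2, Parp9, Parp14, Ifi27 and Rtp4. The ISRE core searched was GAAA, any 2 bases and GAAA again, which reads TTTC, 2 bases and TTTC on the opposite strand, and both were searched. The GAS core was TTC, any 3 bases and GAA, which reads the same on both strands. The ISRE core lay in the windows of 10 of 27 members (37.0%) and of 1079 of 27025 genes (3.99%). The GAS core lay in those of 8 of 27 members (29.6%) and of 2582 genes (9.55%). In 28 of the 34 windows of members, bases just past the start site lay in a GENCODE transcript of the gene, in the same orientation. This was not found for the other windows, so their start sites are less certain. The stretches of 30 bases below carry the core in capitals and run 5′ to 3′ along the gene. The first 8 are from genes that were lower with Trps1 siRNA, and the last 4 from genes that did not pass the test.
Ifit1, chr19:34640775-34640804, plus strand: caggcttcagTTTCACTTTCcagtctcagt
Ifit1, chr19:34640794-34640823, plus strand: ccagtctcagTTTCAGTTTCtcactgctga
Ifit3, chr19:34583363-34583392, plus strand: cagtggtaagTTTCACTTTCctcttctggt
Ifit3, chr19:34583397-34583426, plus strand: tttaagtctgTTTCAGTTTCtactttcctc
Oas1a, chr5:120907520-120907549, minus strand: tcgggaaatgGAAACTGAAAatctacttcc
Oas3, chr5:120777715-120777744, minus strand: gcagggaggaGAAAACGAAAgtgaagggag
Isg15, chr4:156200871-156200900, minus strand: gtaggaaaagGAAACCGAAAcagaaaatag
Ifitm3, chr7:141010706-141010735, minus strand: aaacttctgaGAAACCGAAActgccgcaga
Stat2, chr10:128270266-128270295, plus strand: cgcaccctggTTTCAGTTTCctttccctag
Bst2, chr8:71537577-71537606, minus strand: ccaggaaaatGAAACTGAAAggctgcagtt
Rsad2, chr12:26456553-26456582, minus strand: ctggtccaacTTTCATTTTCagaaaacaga
Irf1, a GAS core, chr11:53769913-53769942, plus strand: aacagcctgatTTCCCCGAAatgatgaggc

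Ifit1 and Ifit3 carried the same pair of cores, TTTCACTTTC and TTTCAGTTTC, and the second was also the core in the Stat2 window. In Oas1a, Isg15 and Bst2 consecutive ISRE cores overlapped each other, and in Bst2 and Ifitm3 a GAS core overlapped an ISRE core. Of the 10 members with the ISRE core, 6 were lower with Trps1 siRNA by the test described below, with a median log2 fold change of -0.34. Of the 17 members with a window but no such core, 9 were lower, with a median of -0.21. Over all tested genes 6% were called lower, and members with and without the core were not tested against each other. Ifit2, the member with the largest change, and Irf7 were among those without the ISRE core. A match in these letters is a description of the window and was not tested as a binding site.

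**Figure D1:**
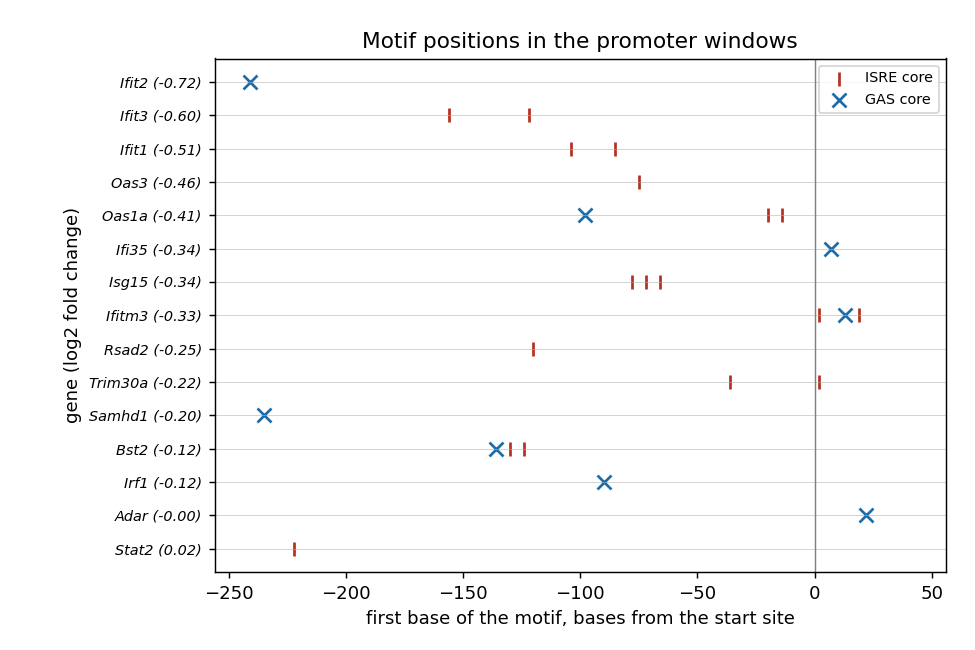
Position of each ISRE core (red bars) and GAS core (blue crosses) in the promoter windows of the 15 members that have either; the x axis is the distance in bases of the motif's first base from the start site, and the y axis names the gene with its log2 fold change. ISRE cores lie on both sides of the start site, from 222 bases before it in Stat2 to 19 bases after it in Ifitm3.

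With Trps1 siRNA, 17 of the 35 genes fell, 1 rose and 17 did not pass the test, which was edgeR's quasi-likelihood test with a Benjamini-Hochberg adjusted p under 0.05 over all tested genes. Among all 14701 tested genes 6% were called lower and 5.24% higher. The falls were modest. The median of the 35 log2 fold changes was -0.21, a level of 86.6% of the control, beside 0.002 for all tested genes. In 28 of the 35 genes both Trps1 siRNA libraries lay below both Negative siRNA libraries, and this held for 26.1% of all tested genes. Ifi27 was the 1 member with both above (26% of all tested genes), and in the other 6 the groups overlapped. The count of members called lower was 8 without Negative 2 and between 13 and 21 with any other library left out, and the median was -0.32 without Trps1 2. Ifit1, Ifit2, Ifit3, Oas1a, Oas3, Irf7, Usp18, Ifitm3 and Ifi27 were called in each of the 11 alternative analyses.

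The targeted gene and the cell type were checked first. Trps1 stood at 38.1 and 42.2 CPM (reads scaled to a common library size) in the Negative siRNA libraries and at 23.5 and 30.1 CPM in Trps1 1 and Trps1 2, 67.1% of the control (edgeR adjusted p = 0.000351). Trps1 1 held the lowest level of 29 of the 35 interferon-stimulated genes, a count for which no share over all tested genes is given. A relation to the level of Trps1 was not tested. Library totals ranged from 17844125 to 25852898 counts. Leydig markers were abundant and moved with the siRNA: 8 genes summed to 4054 and 4337 CPM in Negative 1 and 2 and to 6035 and 6477 CPM in Trps1 1 and 2, and 6 of the 8 rose, with a median log2 fold change of 0.52. Cyp17a1, a steroid-making enzyme, rose most, from 16.5 and 15.2 CPM to 107 and 98.9 CPM. Star, at 330 and 302 against 287 and 307 CPM, and Insl3, at 252 and 272 against 268 and 263 CPM, did not pass the test. Without Cyp11a1, the most abundant, the sums were 1643 and 1723 CPM in Negative 1 and 2 and 2619 and 2822 CPM in Trps1 1 and 2. Markers of macrophages, which are also known to express these genes, summed to 3099 and 3012 CPM (12 genes) in Negative 1 and 2 and to 2614 and 2063 CPM in Trps1 1 and 2, and 7 of the 12 fell, with a median log2 fold change of -0.47. The other 5 macrophage markers did not pass the test. All 12 lay below both control libraries in both Trps1 siRNA libraries (26.1% of all tested genes). Beside these counts of Leydig and macrophage markers, 5.24% of all tested genes were called higher and 6% lower. Lymphocyte markers were near 0, with 8 genes summing to 1.89 to 3.53 CPM. In bulk RNA, fewer cells of a type and less RNA per cell cannot be told apart. Exons of 8 of the 35 genes overlap a gene on the opposite strand (Irf1, Irf7, Oasl1, Usp18, Parp9, Dtx3l, Adar and Ifi35), and those of 5 a gene on the same strand (Irf9, Herc6, Parp14, Rtp4 and Sp100). Their values are uncertain to that extent, Adar with 1365 shared bases and Herc6 with 1269 the most.

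The sums of the 35 genes and of the macrophage markers were both lower in the Trps1 siRNA libraries, and the sum of the Leydig markers was higher there. The 35 genes summed to 9643 and 10378 CPM in Negative 1 and 2 and to 8447 and 8951 CPM in Trps1 1 and 2. The sum of the 35 genes was higher in Trps1 2 than in Trps1 1, and all 12 macrophage markers were lower in Trps1 2. Of all tested genes, 48.8% were higher in Trps1 2 than in Trps1 1. In the controls, 9 of the 12 markers and the sum of the 35 genes were higher in Negative 2 (49.9% of all tested genes). The marker sum was lower there through Lyz2, and without Lyz2 it was 1661 and 1725 CPM in Negative 1 and 2 and 1405 and 1075 CPM in Trps1 1 and 2. The part of the macrophage and Leydig markers in the difference between the groups was not tested. Lgals3bp, Ifitm3, Bst2 and Irf7 made up 57.5% to 58.5% of the sum. Without them, the sums of the other 31 genes were 4045 and 4310 CPM in the controls against 3507 and 3801 CPM, so the order of the libraries did not rest on the 4 most abundant genes.

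**Figure D2:**
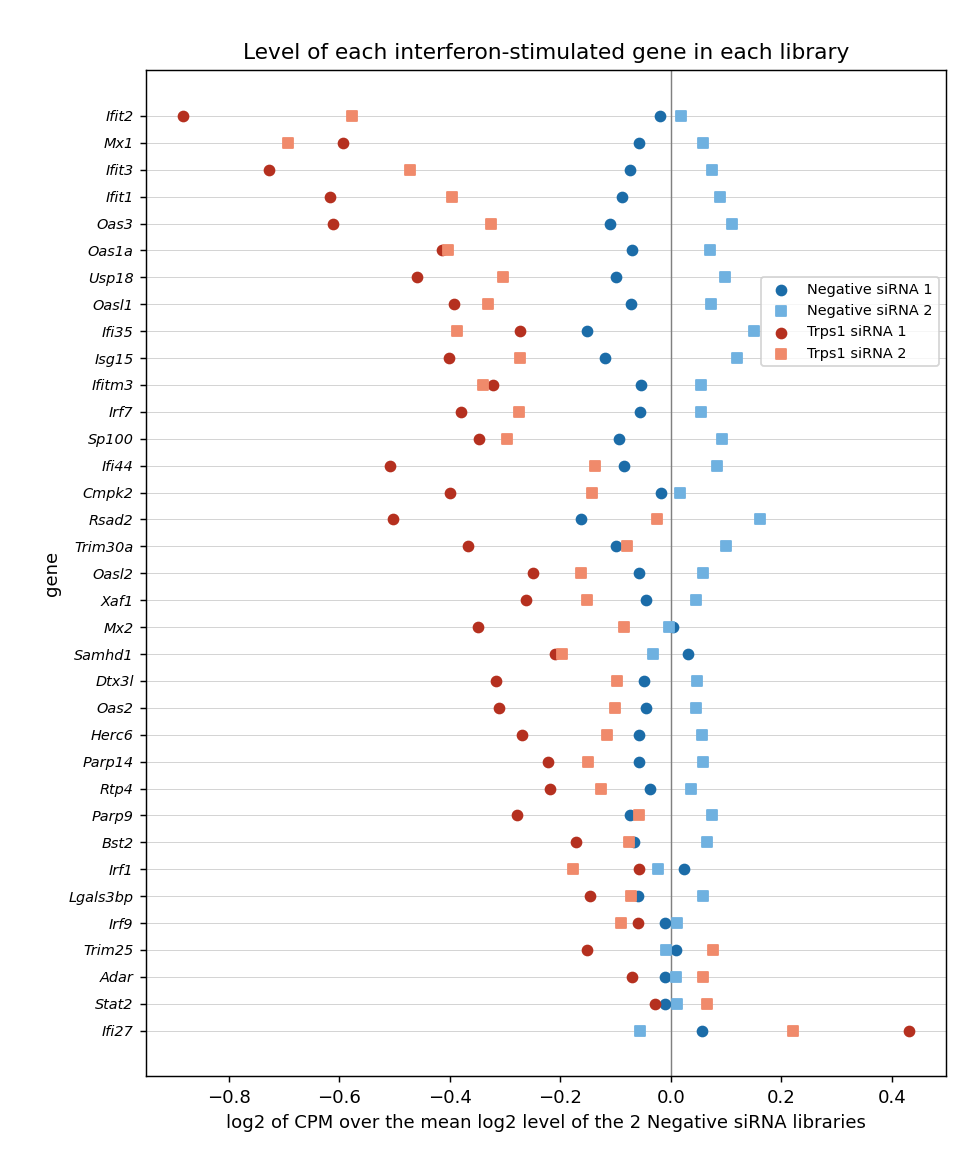
Level of each of the 35 genes in each library, as the log2 ratio to the mean log2 level of the Negative siRNA libraries; blue points are the Negative siRNA and red points the Trps1 siRNA libraries, circles being library 1 and squares library 2, with genes sorted by fold change. The dark red circles of Trps1 1 are the leftmost points in 29 genes, and Ifi27 at the bottom is the gene with both red points to the right.

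The genes differed together between libraries of the same group. Negative 2 was above Negative 1 in 30 of the 35 genes (49.9% of all tested genes), and Trps1 2 above Trps1 1 in 29 (48.8% of all tested genes). Library 2 was above library 1 in both groups in 26 members, against 25.5% of all tested genes. Since the members vary together, their counts of calls do not amount to that many separate observations. Rsad2, or viperin, a radical-SAM enzyme that makes a chain-terminating nucleotide, had the widest differences, 0.32 between the Negative siRNA and 0.48 between the Trps1 siRNA libraries on the log2 scale. Ifi35 differed by 0.30 and -0.11, and Ifi27 by -0.11 and -0.21, the opposite sign to most.

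**Figure D3:**
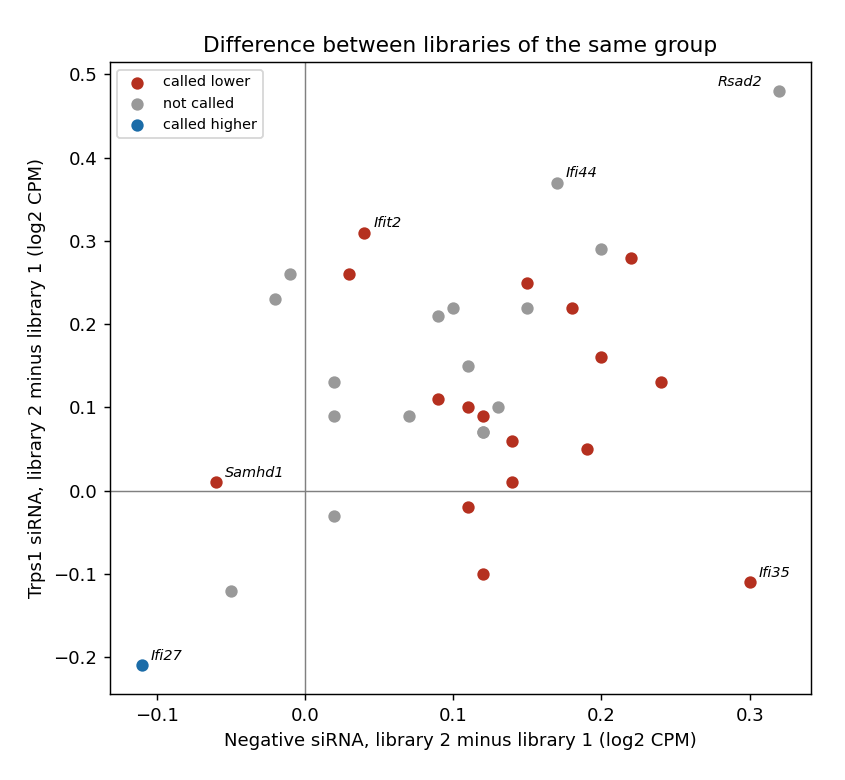
Difference between library 2 and library 1 in log2 CPM for each of the 35 genes, within Negative siRNA (x axis) and within Trps1 siRNA (y axis), coloured by the call in the comparison of the groups. The 26 points in the upper right are higher in library 2 of both groups, Rsad2 the farthest out, and Ifi27 lies in the lower left.

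Of the transcription factors, Irf7 fell and the other 3 members did not pass the test. Irf7, the factor that amplifies the interferon response (GRCm38 chromosome 7, bases 141262706 to 141266481, minus strand), stood at 1043.9 and 1127.2 CPM in Negative 1 and 2 and at 834 and 896 CPM in Trps1 1 and 2. The groups did not overlap, and the log2 fold change was -0.33 ± 0.06 (standard error; edgeR adjusted p = 0.000776). Stat2 and Irf9, of the complex that binds the ISRE, were nearly level. Stat2 had 303 and 307 CPM against 299 and 319 CPM, with a 95% interval of the log2 fold change from -0.10 to 0.14. Irf9 had 106 and 108 CPM against 102 and 100 CPM, with an interval from -0.19 to 0.04. Irf1, a factor known to be induced by interferon gamma through a GAS, had 40.8 and 39.5 CPM against 38.6 and 35.5 CPM (interval -0.28 to 0.05). The estimate for Irf7 lay outside the intervals of Stat2, Irf9 and Irf1. Its own interval, from -0.46 to -0.20, overlapped that of Irf1, and the genes were not tested against each other.

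All 3 IFIT genes fell, with no overlap between the groups, and their median fold change was the lowest of the roles. They lie in one cluster on chromosome 19 and encode tetratricopeptide repeat proteins that hold viral RNA away from the ribosome. Ifit2 (34550694 to 34576419, plus strand) had 38.2 and 39.2 CPM in Negative 1 and 2 and 20.9 and 25.9 CPM in Trps1 1 and 2. Both Trps1 siRNA libraries were low, Trps1 1 the more so, and the log2 fold change was -0.72 ± 0.10 (standard error; edgeR adjusted p = 1.1e-05). Ifit3 (34583531 to 34588731) had 349 and 387 CPM against 222 and 265 CPM, 66.2% of the control. Its neighbour Ifit3b, which is near-identical and held 51.2% of the 50-base stretches of Ifit3 transcripts, stood at 110 and 130 CPM against 75.4 and 88.7 CPM, and how the counting divided reads between the copies is uncertain. Ifit1 (34640871 to 34650009) had 191 and 216 CPM against 132 and 154 CPM, 70.5% of the control (edgeR adjusted p = 7.25e-05). In the authors' deposited table, which lists 780 genes, the log2 fold changes were -0.72, -0.60 and -0.51 for Ifit2, Ifit3 and Ifit1.

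Of the OAS family, 4 of 5 genes fell and in all 5 the groups did not overlap. Oas3, which makes the 2-5A messenger from double-stranded RNA, had 92.8 and 108 CPM in the controls against 65.6 and 80.0 CPM, with both treated libraries below both controls. Its log2 fold change was -0.46 ± 0.09 (standard error; edgeR adjusted p = 0.00468). Oas1a, a smaller enzyme of the same kind, had 70.4 and 77.7 CPM against 55.5 and 55.9 CPM, 75.1% of the control. It shares 57.6% of its 50-base stretches with Oas1g, which stood at 14.3 and 17.6 CPM against 11.0 and 10.9 CPM, so these reads too could be split between copies. Oasl1, which is known to restrain translation of Irf7, had 49.8 and 55.0 CPM against 39.9 and 41.6 CPM, and Oasl2 had 289 and 313 CPM against 253 and 269 CPM. They stood at 77.7% and 86.6% of the control (edgeR adjusted p = 0.00246 and 0.0272), and both calls were lost without Negative 2, that of Oasl2 also without Trps1 1. Oas2 had 60.9 and 64.8 CPM against 50.6 and 58.6 CPM and did not pass the test (edgeR adjusted p = 0.0985). It was called lower in 3 of the 11 alternatives.

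In the ISG15 system, the modifier and its protease fell while the ligases did not pass the test. Isg15 (chromosome 4, bases 156199424 to 156200818, minus strand) went from 198 and 234 CPM to 163 and 178 CPM. The log2 fold change was -0.34 ± 0.07 (standard error; edgeR adjusted p = 0.00249), and the call was lost without Negative 2, the higher of the controls. Usp18, which removes Isg15 from proteins and damps the type I receptor, had 71.0 and 81.5 CPM against 55.3 and 61.7 CPM, 76.7% of the control (edgeR adjusted p = 0.00121). Herc6, the main Isg15 ligase in the mouse, had 37.1 and 40.2 CPM against 32.0 and 35.7 CPM (edgeR adjusted p = 0.169). Trim25, a ligase that also acts on the sensor RIG-I, had 222 and 219 CPM against 199 and 233 CPM, so its groups overlapped. Of the enzymes that pass Isg15 to the ligase, the conjugating enzyme Ube2l6 fell, from 125 and 130 to 106 and 115 CPM (edgeR adjusted p = 0.0249). The call of Ube2l6 was lost with DESeq2, without Negative 1 and without Negative 2. The activating enzyme Uba7, at 91.9 and 101 against 93.3 and 91.4 CPM, did not pass the test (edgeR adjusted p = 0.599).

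Among the proteins that act on viral entry, replication or release, 4 of 7 fell. Ifitm3, a membrane protein that stops viruses from fusing in endosomes, was the most abundant member per length of transcript, at 2327 CPM per kilobase of exon in the controls. It went from 1518.3 and 1636.9 CPM to 1261.3 and 1245.4 CPM, a log2 fold change of -0.33 ± 0.06 (standard error; edgeR adjusted p = 0.000375). The treated libraries were close to each other and below both controls. Mx1, a dynamin-like GTPase of the nucleus, was the least abundant member, at 2.30 CPM per kilobase, with 168, 232, 103 and 117 reads in Negative 1, Negative 2, Trps1 1 and Trps1 2. Its level was 63.8% of the control, with a wide interval of the log2 fold change from -0.98 to -0.31, and its call was lost with DESeq2, without Negative 2 and without Trps1 2. Mx2, annotated as a polymorphic pseudogene, had 45.2 and 45.0 CPM against 35.4 and 42.5 CPM and did not pass the test. It was called lower in 2 of the 11 alternatives.

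Cmpk2, a mitochondrial nucleotide kinase, and Samhd1, which breaks down deoxynucleotides, fell to 83.4% and 86.9% of the control (edgeR adjusted p = 0.0233 and 0.0223). Cmpk2 had 75.8 and 77.5 CPM against 58.1 and 69.4 CPM, and Samhd1 259 and 248 CPM against 219 and 221 CPM. Both calls were lost without Negative 2 and without Trps1 1, that of Cmpk2 also with DESeq2, and that of Samhd1 also without either of the other libraries. Rsad2, the neighbour of Cmpk2 on chromosome 12, had 91.4 and 114 CPM against 72.1 and 100 CPM. Its groups overlapped, and its interval from -1.30 to 0.80 was the widest of the 35. Rsad2 did not pass the test but was called lower in 2 of the 11 alternatives. Bst2, or tetherin, which holds budding virions on the cell surface, had 992 and 1087 CPM against 923 and 986 CPM, 91.8% of the control (edgeR adjusted p = 0.241). Bst2 is also a marker of plasmacytoid dendritic cells, whose markers Siglech and Ccr9 had 3 reads each over all 4 libraries.

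None of the 4 genes of ADP-ribosylation and RNA editing passed the test with edgeR, and 3 of them had an unadjusted p under 0.05. Neither DESeq2 nor limma voom called any of the 4, but other edgeR fits called some of them lower: Parp14 (adjusted p = 0.0279) and Dtx3l (0.0212) with no filter on low counts, Parp14 with a mean of at least 5 CPM (0.0378), and Parp9 (0.0220) and Dtx3l (0.0150) without Trps1 2. With the replicate number as a block, Parp9, Dtx3l and Parp14 were all called lower. Parp9 and Dtx3l, partners in one complex that share a promoter region on chromosome 16, had 118 and 130 against 102 and 119 CPM, and 82.2 and 87.9 against 68.2 and 79.4 CPM. Their exons overlap on opposite strands by 458 bases, and without strand-aware counting their reads cannot be told apart there. Parp14, a mono-ADP-ribosyltransferase, had 94.1 and 102 CPM against 83.9 and 88.3 CPM (edgeR adjusted p = 0.0536). Adar, which edits adenosine to inosine in double-stranded RNA, was level, with 127 and 129 CPM against 122 and 134 CPM and an interval of the log2 fold change from -0.12 to 0.12. Its sign turned with library totals alone as the scaling.

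Of the remaining 8 genes, 3 fell, 1 rose and 4 did not pass the test. Ifi35, which binds the partner protein Nmi, had 53.2 and 65.6 CPM against 48.9 and 45.2 CPM. Sp100, of nuclear bodies, had 55.6 and 63.2 CPM against 46.6 and 48.3 CPM. Xaf1, a partner of the apoptosis inhibitor XIAP, had 132 and 140 CPM against 113 and 122 CPM. The 3 stood at 78.9%, 79.8% and 86.6% of the control (edgeR adjusted p = 0.0113, 0.00605 and 0.0223), and all 3 calls were lost without Negative 2. That of Ifi35 was also lost without Trps1 2, and that of Xaf1 without Trps1 1 and with DESeq2. Ifi27, a small hydrophobic protein of mitochondria, went from 339 and 314 CPM to 441 and 381 CPM. Both treated libraries lay above both controls, Trps1 1 the highest, and the log2 fold change was 0.33 ± 0.07 (standard error; edgeR adjusted p = 0.00184). Its relative Ifi27l2a, a gene outside the 35, went the other way, from 392 and 445 to 308 and 280 CPM (log2 fold change -0.51 ± 0.07, standard error; edgeR adjusted p = 9.33e-06).

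Ifi44, Rtp4, Trim30a and Lgals3bp did not pass the test, with edgeR adjusted p-values from 0.0546 to 0.275. Ifi44 had 172 and 193 CPM against 128 and 166 CPM. The difference between its treated libraries was large, and it was called in 5 of the 11 alternatives, with adjusted p-values from 4.74e-07 to 0.438. Trim30a, which restrains signalling from Toll-like receptors, had 140 and 161 CPM against 117 and 142 CPM, and its groups overlapped. Rtp4, a chaperone of receptors, had 132 and 139 CPM against 117 and 124 CPM. Trim30a and Rtp4 were each called lower in 4 of the 11 alternatives. Lgals3bp, a secreted glycoprotein that binds galectin-3, had the most reads of the 35, at 2043.3 and 2216.2 CPM against 1921.5 and 2022.3 CPM, 92.6% of the control.

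**Figure D4:**
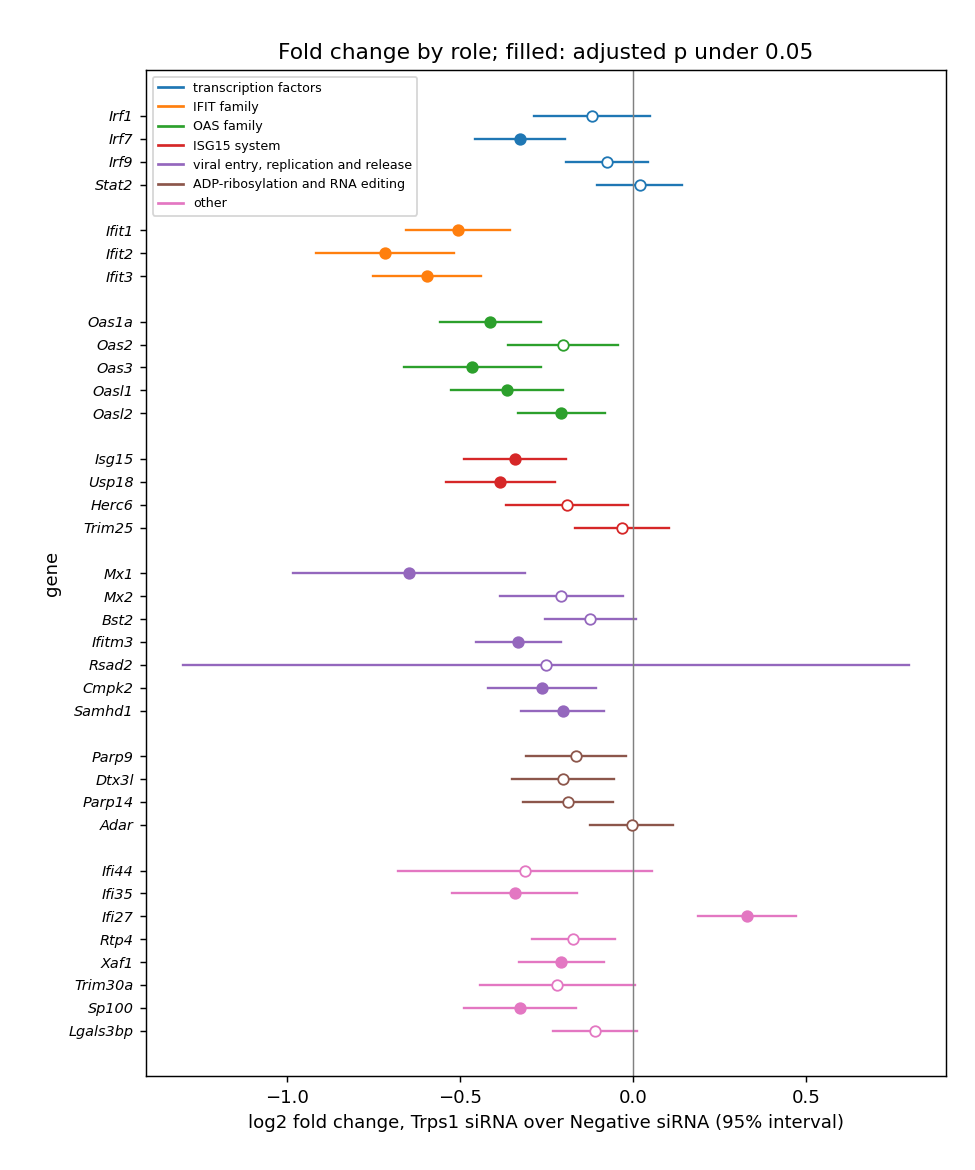
Log2 fold change of each of the 35 genes, Trps1 siRNA over Negative siRNA, with its 95% interval, grouped and coloured by role; filled points passed edgeR's test and open points did not. The IFIT genes in orange lie farthest to the left as a group, from -0.72 to -0.51, and Ifi27 is the filled point right of 0. The intervals of Irf1, Irf9, Stat2, Trim25, Bst2, Rsad2, Adar, Ifi44, Trim30a and Lgals3bp span 0.

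Per kilobase of exon in the controls, the order began with Ifitm3, Bst2 (1151 CPM per kilobase) and Lgals3bp (748), and ended with Sp100 (7.86), Herc6 (4.16) and Mx1 (2.30). Irf7 and Isg15, at 287 and 286 CPM per kilobase, could not be ranked apart, and in 17 of 34 neighbouring pairs the control libraries overlapped. Ifit2, with the largest fall, ranked 32 of 35, and Ifit3 and Ifit1 ranked 7 and 8, while Bst2 and Lgals3bp in ranks 2 and 3 did not pass the test.

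The interferon genes looked up had few reads or none, and other interferon genes are not given here. Ifna4, Ifnk and Ifne had 0 reads among the 85411009 counts of the 4 libraries, which allows up to 0.0351 CPM each. Ifna2 and Ifng had 1 read each, Ifnb1 13 and Ifnl2 16. Ifnl3, a type III interferon, had 77 reads, at 0.448 and 0.703 CPM in the controls against 1.40 and 1.15 CPM. The treated libraries were the higher, with a log2 fold change of 1.10 ± 0.45 (standard error) that did not pass the test (edgeR adjusted p = 0.127). The floor and such low counts cover counting error only, and not reads that map to several genes, whose handling is not given.

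The receptor chains Ifnar1 and Ifnar2, at 66.0 and 66.3 against 70.4 and 68.1 CPM and at 115 and 120 against 119 and 117 CPM, had log2 fold changes of 0.06 and 0.01 and did not pass the test. Of a list of 28 interferon signalling genes outside the 35, which holds these and the interferon genes, 21 were tested. Of these 4 fell, 17 did not pass the test and none rose, with a median log2 fold change of 0.01. Over all tested genes 6% were called lower. Those that fell included the IRF factor Irf5, at 34.5 and 34.3 against 26.2 and 25.7 CPM. The phosphatase Ptpn6 stood at 35.1 and 33.4 against 28.7 and 21.3 CPM, and the feedback inhibitor Socs3 at 62.8 and 57.7 against 48.5 and 52.5 CPM. The call of Ptpn6 was lost without Trps1 2, and that of Socs3 without Negative 1, without Trps1 1, with DESeq2 and with library totals alone. Socs1, a feedback inhibitor of the receptor kinases, had 12.1 and 13.8 CPM in the controls and at most 10.2 CPM in the treated libraries (edgeR adjusted p = 0.0872). Irf8, another IRF factor of the signalling list, had 104 and 102 CPM against 114 and 103 CPM. Its log2 fold change was 0.07, and it did not pass the test (edgeR adjusted p = 0.512). The macrophage markers given above were lower in the same libraries, and their part in these changes was not tested.

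Of a wider list of 56 interferon-stimulated genes outside the 35, 54 were tested. Of these 17 fell and none rose, beside 6% of all tested genes called lower, with a median log2 fold change of -0.16, and the count of genes called lower was 8 without Negative 2. The 6 with the smallest p were Ifi27l2a, Slfn5, Phf11b, Ifit3b, Ifi203 and Lgals9. Slfn5, of the Schlafen family, had 32.2 and 28.9 CPM against 19.9 and 20.5 CPM. Phf11b had 16.9 and 18.6 CPM against 11.5 and 7.96 CPM. Ifi203, a nuclear DNA-binding protein of the HIN-200 family, had 42.7 and 48.7 CPM against 31.6 and 36.5 CPM. Lgals9, a galectin, had 473 and 497 CPM against 384 and 409 CPM.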

How the data were processed

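Read counts per gene were deposited by the authors as whole, unscaled counts for 4 libraries. Alignment with HISAT2 and counting with featureCounts on GRCm38 (mm10) are listed in the submitters' processing notes. For versions, strandedness and multi-mapped reads, nothing is given in the sources used here. A second table deposited by the authors lists 780 genes with group means of scaled counts (signal), a log2 fold change, a p-value and an adjusted p-value per gene, and its test is not stated. Fold changes from it are named as such.

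Identifiers were matched to GENCODE M21 symbols. Counts were tested with edgeR 4.0.16 (R 4.3.3): TMM scaling, filterByExpr (minimum count 10), robust glmQLFit and glmQLFTest, group only, 2 residual degrees of freedom. Standard errors are log2 fold changes over the root of F, and CPM use TMM-scaled totals. The fit was tested on simulated data in which genes varied independently and with a common dispersion. That setting does not test calls of genes that vary together, as these do. Replicates differed by more than sampling noise (mean chi-square per gene 7.58 and 4.56). Alternatives were RLE factors, library totals alone, other filters, DESeq2 1.42.0, limma 3.58.1 voom, a replicate block and each library left out. The genes and lists were chosen with earlier results of these data known. All 35 members are named, and of 2 further lists the 6 genes with the smallest p and, as counts, the interferon genes. Uba7, Ube2l6, Oas1g, Irf8, Ifnar1, Ifnar2, Siglech and Ccr9 were chosen after their values were seen. 1 gene that this rule takes is not reported here. No set test was run.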

Additional observations from a re-analysis of the deposited data

How the results depend on the processing

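Of the 35 log2 fold changes, all kept their call with RLE size factors and with library totals alone. Calls of members as lower numbered 26 with the replicate number as a block, against 17 without it, and 8 to 21 with a library left out, lowest without Negative 2. The median log2 fold change lay between -0.32 and -0.15 with a library left out. Genes called over the whole table numbered 991 with DESeq2 and 871 to 1675 with a library left out. Of the wider list, 10 genes were called lower with DESeq2 and 8 to 18 with a library left out, lowest without Negative 2. Of 6 enzymes of Isg15 conjugation, 1 was called lower without Negative 2, against 3. Sign turned for Adar with library totals alone (0.009), without Negative 2 (0.005) and without Trps1 1 (0.057), for Trim25 without Trps1 1 (0.075) and for Stat2 without Trps1 2 (-0.032), none of them called. With a library left out, Adar lay between -0.075 and 0.057 and Stat2 between -0.032 and 0.063. The cause of these shifts was not tested. With a library left out, the lone library of a group is assumed to vary like the others.

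Libraries that share a number had deviations from their group means that correlated at 0.0356 across genes, and 2 pairs cannot show that the numbers pair the samples. The block raised calls over the whole table from 1652 to 2285. Read depth limited the precision for Mx1 and the interferon genes.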
